A study of Drosophila melanogaster with 2 samples.

Results

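The genes for the proteins of the mitochondrial ribosome were examined for HmgZ at their promoters in Drosophila melanogaster embryos. They were taken by name, as every protein-coding gene whose symbol in the Ensembl annotation starts with mRpL (large subunit) or mRpS (small subunit). This gave 73 genes of 13945 protein-coding genes, 47 of the large and 26 of the small subunit. A gene was called bound if the summit of a peak lay within 250 bp of one of its annotated transcription start sites. By that rule 48 of the 73 genes (65.8%) were bound, against 4574 of all 13945 protein-coding genes (32.8%).

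Chromatin immunoprecipitation with sequencing (ChIP-seq) was done on whole embryos aged 4 to 24 h, males and females together, of a transgenic line that stably expresses HmgZ fused at the C-terminal end to green fluorescent protein (GFP). HmgZ belongs to the chromatin proteins with an HMG box, a fold that binds the minor groove of DNA and bends it. There was 1 group with 2 biological replicates, which the labels number 3 and 1, and both came from the same line. The antibody is labelled HmgZ, while the free text of both samples describes an input control. They were treated here as ChIP samples because the assay name and the deposited peak lists are those of a ChIP, and the 4 to 24 h come from the sample source, since a separate age field holds an impossible number. No ChIP from embryos without the tag was analysed here. A whole embryo mixes all its cell types, so a peak in few cells and a weak peak in many cannot be told apart. Read counts are not part of the lists, and the depth is unknown. With 1 group and no counts, nothing was tested, and the shares of the mitochondrial ribosomal protein genes are set beside those of all protein-coding genes as a description.

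Mitochondria have ribosomes of their own, which translate the few messages of the mitochondrial genome, mainly for subunits of the respiratory chain. Their proteins are all encoded in the nucleus, made in the cytoplasm and imported. Many have a counterpart in the bacterial ribosome and share its name, while others occur only in mitochondria. Roles given below are those known from bacterial and mammalian ribosomes, and were not tested in these embryos.

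Most of these genes start close to another gene that runs the opposite way, and at 29 of the 48 bound genes the summit lay in the DNA between both starts. The stretches that follow run from the base after the start of the neighbour to the base before the start of the ribosomal protein gene, on the strand of the ribosomal protein gene, in the RefSeq copy of dm6. They are shown because they held strong peaks and span short to long spacings, and capitals mark matches to the motifs searched on both strands. At mRpS10 (chr3R:15229409-15229664) the summit fell on base 118 of 256, at mRpL24 (chr2L:4945362-4945578) on base 87 of 217, and at mRpS2 (chr2L:4850420-4850640) on base 63 of 221. At mRpL48 (chr2L:1710422-1710461) it fell on base 26 of 40. The stretch at mRpL23 (chr3L:2373705-2373727) has 23 bases, and the summit lay outside it, downstream of a start of mRpL23.
mRpS10 and Art3: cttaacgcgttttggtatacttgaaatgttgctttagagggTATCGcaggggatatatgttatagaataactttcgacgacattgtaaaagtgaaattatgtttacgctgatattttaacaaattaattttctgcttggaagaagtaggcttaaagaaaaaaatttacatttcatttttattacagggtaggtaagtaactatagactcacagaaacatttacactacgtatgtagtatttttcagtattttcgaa
mRpL24 and betaggt-I: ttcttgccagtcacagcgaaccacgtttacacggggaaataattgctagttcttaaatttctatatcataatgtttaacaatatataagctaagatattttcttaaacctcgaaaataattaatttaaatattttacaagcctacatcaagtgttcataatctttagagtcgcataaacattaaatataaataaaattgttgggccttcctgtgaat
mRpS2 and Mon1: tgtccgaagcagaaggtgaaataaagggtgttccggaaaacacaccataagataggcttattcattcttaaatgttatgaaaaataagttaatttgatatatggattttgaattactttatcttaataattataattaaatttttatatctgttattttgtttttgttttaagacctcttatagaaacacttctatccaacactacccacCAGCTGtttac
mRpL48 and CG17660: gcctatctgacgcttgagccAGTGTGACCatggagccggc
mRpL23 and CG9004: gtttaaaacaagtgttggacaac
In the first stretch the capitals are the reverse complement of CGATA, a short site of the boundary protein BEAF-32. The capitals of the mRpS2 stretch are CAGCTG, an E-box, and those of the mRpL48 stretch are the reverse complement of GGTCACACT, the core of the M1BP site. The stretches at mRpL24 and mRpL23 held none of those motifs. The one at mRpL24 has TATAAA, searched on the gene's strand only and left in lower case, from 32 bp before the start. G and C made up 30.1% of the bases at mRpS10, 28.6% at mRpL24 and 28.1% at mRpS2, against 62.5% in the short stretch at mRpL48.

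Each of the 48 bound genes had 1 peak in reach, and no peak was in reach of more than 1 of the genes. Signal is the value the authors gave each region, divided here by the median signal of the 30000 regions listed for that replicate, so 1 is a typical listed region. mRpL41, a large-subunit protein that bacteria lack, had 50.7 in replicate 3 and 27.4 in replicate 1. mRpS10, part of the head of the small subunit, had 39.7 in replicate 3 and 27.8 in replicate 1. mRpL23, a protein at the rim of the tunnel through which the new chain leaves, had 27.2 in replicate 3 and 14.7 in replicate 1. These 3 genes stood above all the others in both replicates, and by pooled signal their peaks ranked 6 (mRpL41), 7 (mRpS10) and 43 (mRpL23) among the 6844 peaks.

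The next gene, mRpL24, whose bacterial counterpart binds early in assembly of the large subunit, had 15.04 in replicate 3 and 9.02 in replicate 1. mRpL47, the counterpart of bacterial L29, followed with 10.4 in replicate 3 and 6.55 in replicate 1. mRpL53, which is specific to mitochondria, had 8.83 in replicate 3 and 6.15 in replicate 1. Both subunits were among the strong peaks, since mRpS2 and mRpS16 of the small subunit came next in line. mRpS2 had 8.13 in replicate 3 and 6.02 in replicate 1, and mRpS16 had 6.58 in replicate 3 and 5.57 in replicate 1. mRpL1, which forms a mobile stalk of the ribosome, had 7.05 in replicate 3 and 4.65 in replicate 1. mRpL48, specific to mitochondria, had 6.40 in replicate 3 and 4.55 in replicate 1, which closes the 10 genes of highest mean signal.

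At the low end the peaks were still above the median of the lists. mRpL14 had 1.54 in replicate 3 and 2.30 in replicate 1. mRpL35 had 2.48 in replicate 3 and 1.80 in replicate 1, and mRpL15 had 2.39 in replicate 3 and 2.02 in replicate 1. All are large-subunit proteins with bacterial counterparts, as are mRpL19 and mRpL16. mRpL19 had 2.23 in replicate 3 and 2.34 in replicate 1, and mRpL16 had 2.77 in replicate 3 and 2.24 in replicate 1. Only 1 replicate had a region with a summit within 100 bp of the peak at 2 genes, with 3.00 in replicate 3 at mRpL32 and 1.92 in replicate 1 at mRpL44.

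**Figure D1:**
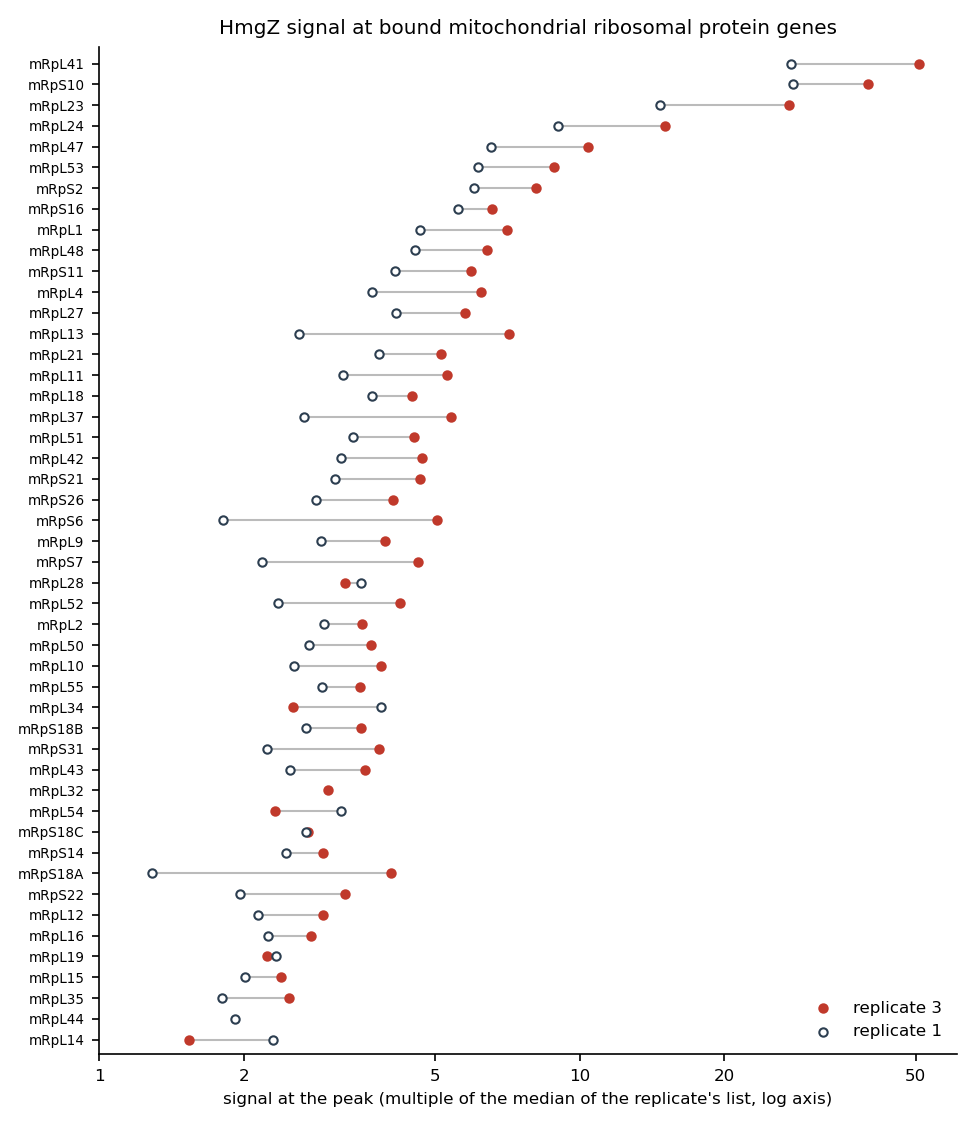
HmgZ signal at the peak of each of the 48 bound mitochondrial ribosomal protein genes, as a multiple of the median of the replicate's list on a log axis. Filled points are replicate 3 and open points replicate 1, genes run from high to low mean, and 41 of the 46 genes with both values are higher in replicate 3.

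Signal at the bound genes was about that of bound genes in general. The median in replicate 3 was 4.24 at the bound mitochondrial ribosomal protein genes (quartiles 3.25 and 6.08, n = 47), against 3.94 at all bound protein-coding genes (quartiles 2.82 and 5.70, n = 4460). In replicate 1 the median was 2.91 (quartiles 2.35 and 3.99, n = 47), against 3.18 at all bound genes (quartiles 2.41 and 4.35, n = 4444). The median pooled rank was 2896 at the mitochondrial ribosomal protein genes and 2812 at all bound genes, and 14 of the 48 peaks (29.2%) were among the strongest 1711, against 31.5% of all bound genes.

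The replicates differed in scale at these genes. Replicate 3 was higher at 41 of 46 genes (89.1%), by a median ratio of 1.42, against 72.7% and a median ratio of 1.26 at all bound genes with both values. The 5 genes lower in replicate 3 were mRpL34, mRpL14, mRpL54, mRpL28 and mRpL19, at ratios of 0.655, 0.667, 0.729, 0.928 and 0.955. The ratio was above 2 at 5 genes, all of which were higher in replicate 3. It was 3.14 at mRpS18A (4.04 in replicate 3, 1.29 in replicate 1), 2.79 at mRpS6 (5.05 in replicate 3, 1.81 in replicate 1) and 2.73 at mRpL13 (7.12 in replicate 3, 2.61 in replicate 1). Across the 46 peaks the replicates ranked the genes in a like order, with a Spearman rho of 0.703 and a Pearson r of 0.894 on the log2 scale. That is across peaks of 1 set of genes, both lists share the same control alignment, and genes are not replicates.

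Large-subunit genes were bound more often than small-subunit genes in this peak set by the 250 bp rule. Of the 47 large-subunit genes 34 (72.3%) were bound, and of the 26 small-subunit genes 14 (53.8%), against 32.8% of all protein-coding genes. Within 500 bp the difference was smaller, with 36 of the 47 and 18 of the 26. Genes with low numbers in their names, which mostly have bacterial counterparts (up to 36 in the large and 21 in the small subunit), were bound in 32 of 42 cases (76.2%). Genes with higher numbers, mostly specific to mitochondria, were bound in 16 of 31 (51.6%). In the large subunit both kinds were mostly bound, with 21 of 28 low-numbered genes and 13 of 19 high-numbered genes. In the small subunit 11 of 14 low-numbered genes were bound and 3 of 12 high-numbered genes, the 3 being mRpS22, mRpS26 and mRpS31. This contrast was smaller within 500 bp. Peaks then came in reach of the high-numbered mRpS23 (383 bp), mRpS24 (271 bp) and mRpS30 (455 bp), and of the low-numbered mRpS17 (415 bp). The median mean signal at bound genes was 3.68 for the large (n = 32) and 3.41 for the small subunit (n = 14).

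Further values are given by place in the ribosome. The places were picked after the values were seen and do not cover all genes, and 65.8% of the 73 genes were bound, so nothing is read from the counts within them. In the stalk that recruits translation factors mRpL10, mRpL11 and mRpL12 were bound. Replicate 3 and replicate 1 gave 3.86 and 2.55 at mRpL10, 5.31 and 3.22 at mRpL11, and 2.93 and 2.14 at mRpL12. The 5.31 is from a region whose own summit in replicate 3 lay over 250 bp from the start of mRpL11. The strongest region of replicate 3 within 250 bp of mRpL11 had 2.08. Around the peptidyl transferase centre, mRpL2 (3.52 in replicate 3, 2.93 in replicate 1) and mRpL4 (6.24 in replicate 3, 3.70 in replicate 1) were bound and mRpL3 was not.

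On the platform of the small subunit mRpS6 had 5.05 in replicate 3 and 1.81 in replicate 1, and mRpS11 had 5.93 in replicate 3 and 4.13 in replicate 1. S18 has 3 mitochondrial counterparts encoded by separate genes, and each had its own peak. mRpS18A had 4.04 in replicate 3 and 1.29 in replicate 1, mRpS18B had 3.50 in replicate 3 and 2.70 in replicate 1, and mRpS18C had 2.72 in replicate 3 and 2.69 in replicate 1. In the head of the small subunit mRpS7, mRpS10 and mRpS14 were bound, while mRpS9 and mRpS24, the counterpart of bacterial S3, were not.

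By chromosome arm, 11 of 12 genes were bound on 2L, 9 of 12 on 2R, 9 of 17 on 3L and 16 of 21 on 3R. The X held 11 of the genes, of which mRpL14, mRpL16 and mRpS14 were bound (27.3%), against 29.9% of all protein-coding genes of the X. On the other arms 45 of 62 (72.6%) were bound, against 33.3% of all protein-coding genes there. Of the 8 X-linked genes that were not bound, 7 had a region of the pooled list in reach, at ranks 7568 to 15625. Outside the window, mRpL33 and mRpS30 of the X had a peak of the deposited set 264 bp and 455 bp upstream. The X count was thus higher within 500 bp. Starts of divergent pairs were farther apart on the X, with a median spacing of 457 bp against 206 to 342 bp on the other arms. The part of that spacing in the X count was not tested.

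A divergent neighbour, meaning a protein-coding gene on the other strand whose start lies upstream within 1000 bp, was present at 58 of the 73 genes (79.5%), against 36.2% of all protein-coding genes. Of those 58 genes 42 (72.4%) were bound, against 53.0% of all protein-coding genes with such a neighbour. Of the 15 without one, 6 (40.0%) were bound, against 21.3% of all protein-coding genes without one. By the 250 bp rule the bound share was thus higher than in all genes on both sides of that split, and higher with a neighbour than without in both sets. That rule counts a peak in reach of both starts for both genes of a pair. When each peak counted only for the gene of its nearest start, 25 genes were bound, 19 of them with a divergent neighbour. By that count the bound share of the ribosomal protein genes was lower with a neighbour than without. The 6 bound genes without a divergent neighbour were mRpL9, mRpL10, mRpL12, mRpL13, mRpL14 and mRpL19. Upstream of 12 of the 15 a gene on the same strand ended within 1000 bp, and mRpL13 starts inside CG10602.

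**Figure D2:**
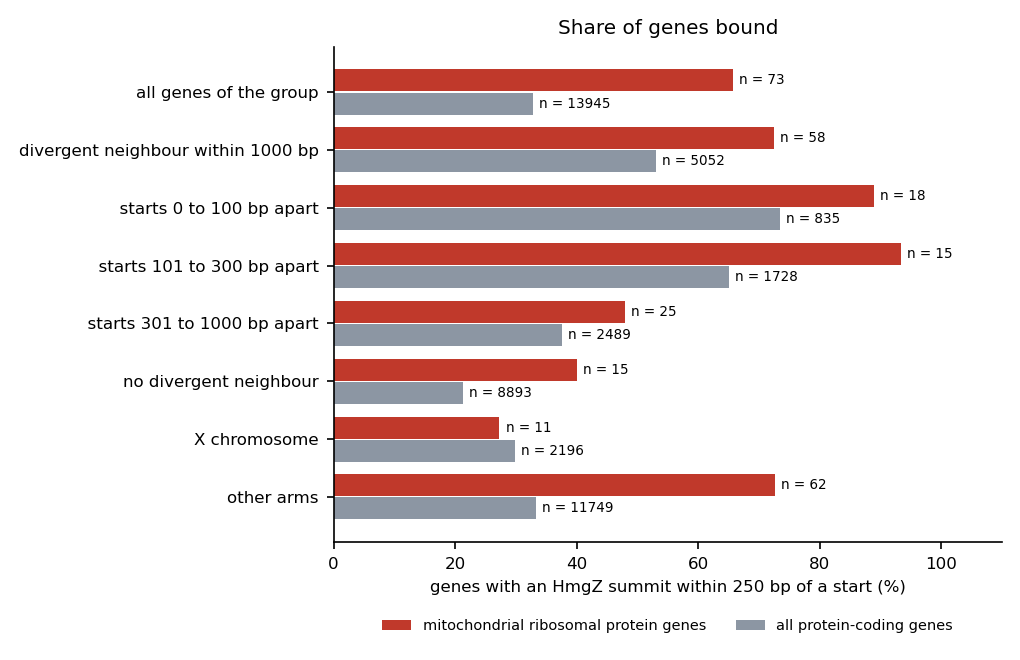
Share of genes with an HmgZ summit within 250 bp of a start, in percent, for the mitochondrial ribosomal protein genes (red, upper bars) and all protein-coding genes (grey, lower bars), by divergent neighbour, spacing of the starts and chromosome. The red bar is longer in every class but the X chromosome, where 3 of 11 genes are bound.

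Spacing of the starts went with the bound share. With starts 0 to 100 bp apart 16 of 18 genes (88.9%) were bound, against 73.5% of all protein-coding genes with that spacing. At 101 to 300 bp 14 of 15 (93.3%) were bound, against 65.1%, and at 301 to 1000 bp 12 of 25 (48.0%), against 37.6%. The median spacing was 220 bp at the 42 bound pairs and 428.5 bp at the 16 that were not bound. In all protein-coding genes it was 248 bp at bound and 399 bp at unbound genes.

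At 34 of the 42 bound divergent genes the same peak was also in reach of the neighbour, so it cannot be assigned to 1 gene by position. In 29 pairs the summit lay between both starts, at a median of 0.438 of the way from the ribosomal protein gene to its neighbour. In 9 pairs it lay beyond the start of the neighbour and in 4 inside the ribosomal protein gene. The start nearest the summit was that of the ribosomal protein gene alone at 23 of the 48 peaks. At 2 it was equally near another gene (CG10602 for mRpL13, CG33155 for mRpL53), and at 23 it was the divergent neighbour. In all, 35 of the 48 peaks (72.9%) were in reach of another gene, against 25.9% of the 3878 promoter peaks being in reach of more than 1 gene. Those shares are not alike, since the 48 peaks were picked by gene, which favours shared peaks, while each promoter peak counts once. The share over all bound genes was not counted.

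Among the strong peaks nearer the neighbour was that of mRpS10, 139 bp upstream of it and 118 bp from the start of Art3, an arginine methyltransferase gene. The mRpL24 summit lay 131 bp upstream of that gene and 87 bp from betaggt-I, which encodes a subunit of a geranylgeranyl transferase. The mRpL47 summit lay 59 bp upstream and 40 bp from CG8176 and from Kdm3, a histone demethylase gene. Further such neighbours were Mon1 at mRpS2 (63 bp from its start, against 159 bp), cg at mRpS16 (19 bp, against 78 bp) and CG15435 at mRpL27 (17 bp, against 108 bp). Others were rept at mRpL21 (136 bp, against 143 bp), a chromatin remodelling ATPase gene, and Taz at mRpL18 (52 bp, against 72 bp), for an enzyme that remodels the mitochondrial lipid cardiolipin. At mRpL41 the neighbour CG8079 started 762 bp away and was out of reach, so its peak, 136 bp upstream, had no other gene in reach.

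**Figure D3:**
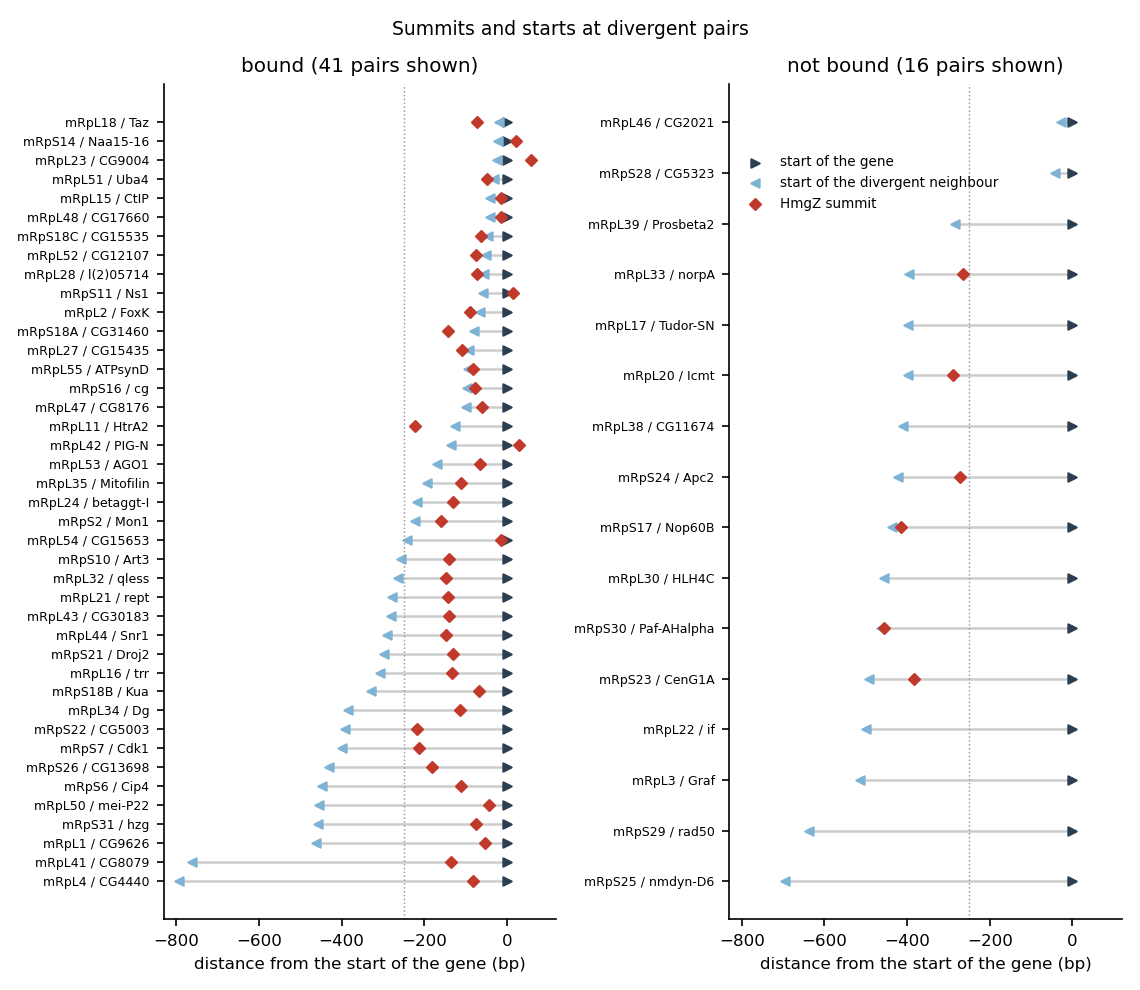
Start of each mitochondrial ribosomal protein gene (dark, at 0), start of its divergent neighbour (light blue) and HmgZ summit (red), in bp from the start of the ribosomal protein gene, for 41 of the 42 bound and all 16 unbound pairs, sorted by spacing. The dotted line marks 250 bp upstream. In the right panel 6 pairs have a summit beyond that line, nearer the neighbour.

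Summits lay upstream of the start at 43 of the 48 bound genes (89.6%), against 80.8% of all bound protein-coding genes. The median position was -86.5 bp (quartiles -137 and -57.2, range -223 to 59, negative upstream), against -60 bp at all bound genes (quartiles -118 and -13). Within 100 bp lay 26 of 48 (54.2%), against 65.8% of all bound genes. In genes with a divergent neighbour the median was -86.5 bp (n = 42), against -72 bp in all such bound genes, and without one it was -90 bp (n = 6), against -44 bp. In each replicate's own strongest regions the median was -86 bp in replicate 3 (n = 47) and -68.5 bp in replicate 1 (n = 46). Summits of the replicates were a median of 10 bp (replicate 3) and 12 bp (replicate 1) from the deposited summit. For 75.2% of the deposited peaks the summit was within 1 bp of the middle of the region, so its position is no finer than the region.

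The summit farthest from its gene was at mRpL11, a protein at the base of the stalk where translation factors bind, 223 bp upstream and beyond the start of HtrA2, a mitochondrial protease gene. At mRpS22 it lay 217 bp upstream, next to CG5003, and at mRpS7, of the head of the small subunit, 212 bp upstream, next to Cdk1, the mitotic kinase gene. mRpS26 followed at 181 bp and mRpL37 at 170 bp. These peaks had middling signal, from 3.25 to 5.39 in replicate 3 and from 1.97 to 3.22 in replicate 1.

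The genes that were not bound mostly had weaker regions. Of the 25, 20 (80.0%) had a region of the pooled list of 30000 within 250 bp, against 32.4% of all unbound protein-coding genes, at ranks 7568 to 27250. With these, 68 of the 73 genes (93.2%) had some pooled region in reach, against 54.6% of all protein-coding genes. The highest was at mRpL22, which lines the exit tunnel, at rank 7568 with 2.68 in replicate 3 and 2.04 in replicate 1. It was followed by mRpS9 at rank 7709 (1.86 in replicate 3, 1.68 in replicate 1) and mRpS28 at rank 8286 (2.03 in replicate 3, 1.30 in replicate 1). mRpS34 was at rank 8321 (1.43 in replicate 3, 1.73 in replicate 1) and mRpL49 at rank 9126 (1.71 in replicate 3, 1.30 in replicate 1). These are the strongest listed regions in reach of each gene. These values reach those of the weakest bound genes, so signal in the replicates overlapped across the limit of the deposited set. The bound peaks nearest that limit were those of mRpL14 at rank 6479, mRpL32 at 6397 and mRpL35 at 6285 of 6844.

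No pooled region was in reach of mRpL20, mRpL33, mRpS17, mRpS23 and mRpS24. All 5, and also mRpS30, had a peak of the deposited set 251 to 500 bp upstream, in reach of the divergent neighbour. The peak next to mRpS23, a protein specific to mitochondria, ranked 10 with 36.7 in replicate 3 and 27.6 in replicate 1. It lay 383 bp from mRpS23 and 109 bp from CenG1A. The peak next to mRpL20, the counterpart of bacterial L20, had 9.90 in replicate 3 and 5.98 in replicate 1, 290 bp from mRpL20 and 109 bp from Icmt, an isoprenylcysteine methyltransferase gene. The other 4 were weaker and lay 264 bp from mRpL33 (neighbour norpA, the phospholipase C of phototransduction), 271 bp from mRpS24 (Apc2), 415 bp from mRpS17 (Nop60B) and 455 bp from mRpS30 (Paf-AHalpha). Whether a gene counted as bound thus turned on the 250 bp window in these 6 pairs. At mRpS24 the list of replicate 3 had a region with its own summit within 250 bp of the start, with 3.22 at rank 3827. The list of replicate 1 had none there.

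Other definitions of a bound gene gave these counts. Within 500 bp 54 genes (74.0%) were bound, against 37.1% of all protein-coding genes, and within 1000 bp the same number, against 40.9%. Within 100 bp it was 26 (35.6%), against 21.6%. With the strongest 3422 peaks 30 genes (41.1%) were bound, against 19.5%. The strongest regions of replicate 3 alone, as many as there are peaks, gave 47 (64.4%), against 33.1%, and those of replicate 1 alone gave 46 (63.0%), against 31.2%. Peaks with a summit in both replicates gave 46 (63.0%), against 31.3%, and the outermost start of each gene alone gave 48 (65.8%), against 30.1%. When each peak counted only for the gene of its nearest start, 25 genes (34.2%) were bound, against 26.4%. Of the shares set beside all protein-coding genes, that last one had the smallest difference among these definitions.

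Motifs were searched on both strands from 250 bp before to 50 bp after the outermost start. The E-box CAGCTG was in 40 of the 73 promoters (54.8%), against 17.7% of all protein-coding genes. It sat around the start, and within 50 bp of it 35 of the 73 genes (47.9%) held one, against 9.34% of all protein-coding genes and 14.5% of all bound ones. Bound and unbound genes held it at like shares, in 23 of 48 (47.9%) and 12 of 25 (48.0%). So did the large subunit, with 23 of 47, and the small subunit, with 12 of 26. Over all protein-coding genes the shares were not alike, at 14.5% of bound and 6.84% of unbound ones. The longer form CAGCTGTT, on either strand, was within 50 bp of the start at 25 genes (34.2%), against 4.52% of all protein-coding genes. On their own strand 22 genes held it, and 8 on the other, while over all protein-coding genes it was 395 and 349. This window and the longer form were chosen after the promoter shares were seen.

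The sites of 8 genes are shown on the gene's strand with 12 bases to either side and the E-box in capitals. They were picked among the genes with the longer form. The first 4 are from bound genes, in order of pooled rank (43, 353, 2291 and 2925). The last 4 are from genes that were not bound.
mRpL23 (chr3L:2373715-2373744): gtggttgacaatCAGCTGtttaaaacaagt
mRpL47 (chr3R:9515873-9515902): ttgttattgcttCAGCTGttttgttcggtc
mRpS21 (chr3R:13381790-13381819): agtgatattcatCAGCTGtttagcagtaca
mRpL28 (chr2L:4973979-4974008): ttcacatacgaaCAGCTGttttttccaaac
mRpL17 (chr3L:264780-264809): ataaatggtcgcCAGCTGttcggcgaatgt
mRpL33 (chrX:4322207-4322236): gataggcgcagtCAGCTGttcttcgttcct
mRpS34 (chr3L:16348064-16348093): agccagccggcaCAGCTGttcgaccttccc
mRpL46 (chr3L:1777425-1777454): tgtgccgcaaatCAGCTGttccggctctgg
In each of the 8 the E-box is followed by TT, as the choice requires. The E-box began 28 bp upstream of the outermost start at mRpL23, and 18 bp downstream of the start at mRpL47.

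The E-box mostly lay some way from the deposited summit, but that position is coarse. For 75.2% of the deposited peaks the summit was within 1 bp of the middle of the region, and the median width was 404 bp. An E-box away from the summit can still lie inside the peak region, as at mRpL23 and mRpL47. In the 23 bound genes with an E-box near the start its centre was a median of 113.5 bp from the summit (quartiles 90 and 131.5), and at 20 of them it was over 50 bp away. The same distance was 83.5 bp over the 661 bound protein-coding genes with an E-box there. Within 100 bp of the summit the E-box was in 10 of the 48 peaks (20.8%), against 16.9% of the 3878 promoter peaks.

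**Figure D4:**
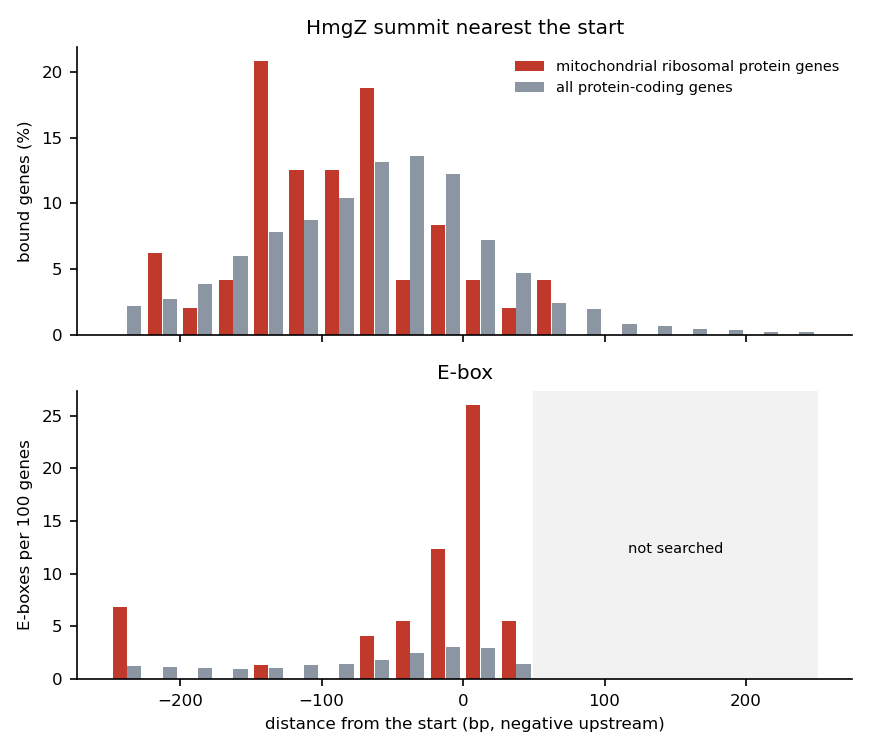
Position of the nearest HmgZ summit (top, percent of bound genes) and of the E-box (bottom, sites per 100 genes) in bins of 25 bp around the start, for mitochondrial ribosomal protein genes (red, left bars) and all protein-coding genes (grey, right bars). The E-box is densest from 0 to 24 bp after the start, with 26.0 sites per 100 mitochondrial ribosomal protein genes against 2.98 in all, while summits lie mostly upstream.

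The most frequent of the searched motifs was the short CGATA of BEAF-32, in 43 promoters (58.9%), against 47.4% of all protein-coding genes. It was in 23 of 48 bound genes (47.9%) and 20 of 25 unbound genes (80.0%), while over all protein-coding genes it was in 60.7% of bound and 40.8% of unbound ones. CCAAT was in 34 promoters (46.6%), against 46.7% of all. TATCGATA, the DRE bound by DREF, which contains CGATA, was in 15 promoters (20.5%), against 9.36% of all, with 7 of 48 bound genes (14.6%) and 8 of 25 unbound genes (32.0%). For that motif too the order over all protein-coding genes was the other way, with 17.8% of bound and 5.22% of unbound genes. Ohler motif 7 was in 17 promoters (23.3%), against 9.29%, and GGTCACACT, the M1BP core, in 8 of the 73, against 6.05%. GAGAGAG, bound by GAGA factor, was in 1 promoter, against 5.87% of all, and CAGGTAG, bound by Zelda, in none of the 73, against 1.64%. TCAGT, the initiator, was within 10 bp of the start at 2 genes (2.74%), against 12.2%, and TATAAA was 45 to 15 bp before the start at 6 (8.22%), against 9.14%. Of those with TATAAA, 5 were among the 48 bound genes (10.4%) and 1 among the 25 unbound genes (4.00%). Over all protein-coding genes TATAAA was at 2.69% of bound and 12.3% of unbound ones. A match is no proof of a site in use, and a missing match says only that these letters were not in that window.

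DNA under the summits was rich in A and T. G+C content within 50 bp of the summit had a median of 30.7% at the 48 peaks (quartiles 26.5 and 39.9), against 41.6% at the 3878 promoter peaks (quartiles 32.7 and 48.5) and 35.6% at promoter peaks in reach of more than 1 gene. At 37 of the 48 peaks it was under the median of promoter peaks. It was 13.9% at mRpL44, 15.8% at mRpL19, 16.8% at mRpL24 and 21.8% at mRpL41, while mRpS16 reached 60.4% and mRpS14 and mRpL53 57.4% each. The summit had fewer G and C than the start at 36 of the 48 genes, and at 61.8% of all bound genes.

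That composition was not limited to the bound genes. The same window, from 136 to 36 bp before the outermost start, was taken at every gene, with or without a peak. It lies around the median summit position of the bound genes (-86.5 bp), so its place is not independent of the peaks. Its median G+C content was 32.7% at the 73 genes, with 32.7% at the 48 bound and 31.7% at the 25 unbound. Over all protein-coding genes it was 37.6%, and 35.6% over all with a divergent neighbour. The part of base composition in the position and strength of the peaks was not tested.

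**Figure D5:**
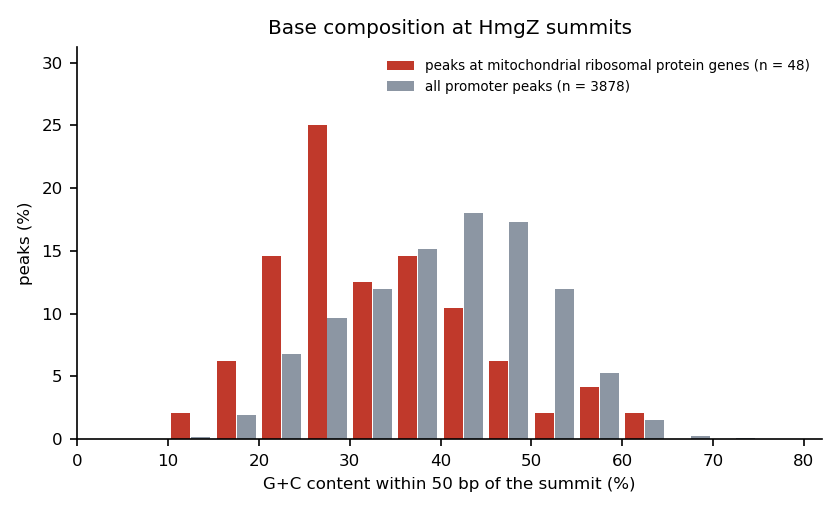
G+C content within 50 bp of the HmgZ summit, in bins of 5 percentage points, for the 48 peaks at mitochondrial ribosomal protein genes (red, left bars) and the 3878 promoter peaks (grey, right bars), in percent of peaks. The red bars are highest at 25 to 30% G+C and the grey bars at 40 to 45%.

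Gene structure also differed from that of the average gene. The mitochondrial ribosomal protein genes had a median length of 909 bp, against 2166 bp for all protein-coding genes, and 91.8% had a single start, against 73.5%. Among genes with 1 start, 43 of the 67 (64.2%) were bound, against 27.3% of all protein-coding genes with 1 start.

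Other genes of mitochondrial gene expression were counted from lists, and are read against the 32.8% of all protein-coding genes that were bound. tko and bonsai, which encode small-subunit proteins under other names, were both bound, tko with 5.66 in replicate 3 and 4.53 in replicate 1 and bonsai with 2.65 in replicate 3 and 3.23 in replicate 1. Of 10 mitochondrial translation factor genes 4 (40.0%) were bound (waw, mEFTs, mRF1 and mIF3), as were 9 of 16 genes (56.2%) for mitochondrial aminoacyl-tRNA synthetases, led by LeuRS-m with 6.25 in replicate 3 and 3.14 in replicate 1. Of 12 genes for mitochondrial DNA maintenance and transcription 7 (58.3%) were bound. Among them PolrMT, the mitochondrial RNA polymerase, had 4.32 in replicate 3 and 4.51 in replicate 1, and TFAM, which packages mitochondrial DNA, was not bound. Of 17 genes for protein import 5 (29.4%) were bound, led by Tim10, a chaperone of the intermembrane space, with 9.48 in replicate 3 and 5.79 in replicate 1. The shares of translation factor and import genes were near that of all protein-coding genes. Side by side with these stood 73 of 93 cytoplasmic ribosomal protein genes (78.5%) and 43 of 87 respiratory chain genes (49.4%).

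The E-box near the start was counted over the same lists. It was at both tko and bonsai, at 5 of 10 translation factor genes, at 8 of 16 aminoacyl-tRNA synthetase genes, at 4 of 12 genes of mitochondrial DNA maintenance and transcription and at 4 of 17 import genes. Respiratory chain genes held it in 17 of 87 cases (19.5%) and cytoplasmic ribosomal protein genes in 7 of 93 (7.53%), against 9.34% of all protein-coding genes. The cytoplasmic ribosomal protein genes were thus bound more often than the mitochondrial ones in this peak set, yet held the E-box less often.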

How the data were processed

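The files are peak lists of an HmgZ-eGFP ChIP-seq with 2 biological replicates. Per the deposited file descriptions, the authors worked on dm6, called regions on each replicate and on both pooled, all with 1 shared control alignment, and derived the set of 6844 peaks passing the irreproducible discovery rate threshold from those lists. The aligner is not given in the sources used here, nor is the peak caller. Every region carries the authors' signal, on a scale that is not stated and varies from list to list. The deposited −log10 q-value was not used for ranking. Signal was divided by the median of each replicate's list.

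Starts came from Ensembl 115, without transposable elements and pseudogenes. Each peak was represented by its summit, and signal was taken from the replicate region with a summit within 100 bp. Replicates were numbered as in the labels. Depth is unknown, so no interval that needs it is given, and no test was made. Sequence was read from the RefSeq copy of dm6.

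The genes, the gene lists and the motifs were chosen with earlier results of these data known. Named with values were the 10 bound genes of highest and the 5 of lowest mean signal, the 5 with the farthest summits, the 5 unbound genes with the highest pooled regions, those without such a region, the 5 whose replicates differed most in signal, the 10 strongest whose peak was nearest another gene, the neighbours of these, and up to 3 genes per other list. Further genes named beside small counts, at the extremes of base composition or of the replicate ratio, or with sequences were chosen after their values were seen. No per-sample column was left out. The neighbour of 1 bound gene is not reported here, and that pair is not drawn.

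In a check with simulated summits near outermost starts, 200 of 200 were found with their distance. At 150 of 150 annotated genes the spacing to a divergent neighbour, or the lack of one, equalled a search gene by gene. Software was Python 3.11.15, numpy 2.4.6, scipy 1.17.1 and matplotlib 3.10.9.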

Additional observations from a re-analysis of the deposited data

How the results depend on the processing

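Of 52 alternative values computed, 36 stayed within the limits set for them (1.5 times a count, or 1 SD between replicates for a median) and 16 did not. Some could hardly leave them, since a count cannot exceed the 73 genes. The SD of the signal also comes from the same 2 replicates that were left out in turn. The 36 is thus no measure of how firm the results are. The 48 bound genes became 26 within 100 bp, 30 with the strongest 3422 peaks and 25 when a peak counted only for its nearest gene. In that order the large subunit had 20, 22 and 18 in place of 34, and the small subunit 6, 8 and 7 in place of 14. Large and small subunit had 36 and 18 within 500 bp, 32 and 15 with replicate 3 alone, and 34 and 12 with replicate 1 alone. The 42 bound genes with a divergent neighbour became 22 within 100 bp, 19 with the nearest gene only and 23 with pairs at most 250 bp apart. The 58 genes with a divergent neighbour became 25 at that spacing and stayed 58 when starts could overlap by up to 250 bp, an alternative chosen after seeing the data. The median summit position of -86.5 bp became -107.5 bp within 500 bp and -67 bp with the nearest gene only, and ranged from -86 to -68.5 bp with 1 replicate left out. The median signal of 3.42 ranged from 2.91 to 4.24 with 1 replicate left out. Fewer peaks or a shorter window can only lower the counts, by construction. No paired analysis was possible because there was 1 group. Both replicates share 1 control alignment, and no untagged ChIP was analysed here. Depth is unknown, so an unbound gene is one without a peak in this set.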
